A study of Homo sapiens with 9 samples.

Results

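Gene expression under OPA1 knock-down was compared in 3 RNA-seq libraries named N_28 and 3 control libraries. The cells are labelled Huh7, which is a liver cancer line from a human hepatocellular carcinoma. The comparison took in every gene of the deposited count table that passed a filter on low counts, which was 15019 of 60448 rows. Beside these 6 libraries the series holds 3 of a further OPA1 knock-down set, N_30, which entered the fit and is otherwise given only where N_28 is set beside it. Gene families and pathways were then described within the 15019 genes.

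The N_28 group carries an OPA1 knock-down made with lentivirus, and the control group carries the genotype label control. The treatment text of the control libraries names the same lentiviral knock-down, so what the controls received instead is not known from the labels. The sources used here do not say what N_28 stands for, which construct silenced the gene, or whether the cells were a pool or a clone. All groups share the medium, DMEM, and the preparation from total RNA. Separate cultures are not stated for the 3 libraries of either group, so each p-value measures only how far these libraries spread, which may be technical.

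OPA1 is a dynamin-related GTPase of the inner mitochondrial membrane. It fuses inner membranes after mitofusins have joined the outer ones, and it keeps the cristae narrow at their necks, which holds cytochrome c inside and the respiratory chain in place. Cells short of OPA1 are known for fragmented mitochondria.

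Depth was 18316731 to 22863328 counts in N_28 libraries and 19510555 to 22164035 in control libraries, and levels are given as CPM, counts scaled to a common library size of 1e6 reads after TMM normalisation. A count of 3, the level below which detection is uncertain, equals 0.131 to 0.165 CPM in N_28 libraries (counting error only). The labelled cell type was set against its markers. The albumin gene ALB had no read in any N_28 library and at most 0.147 CPM in control libraries, APOB had no read in any of the 6, and HNF4A, a hepatocyte transcription factor, reached at most 0.144 CPM. Summed over 8 hepatocyte markers, the level ran from 2.97 to 3.13 CPM in N_28 libraries and from 2.91 to 4.04 CPM in control libraries, so these defining liver markers were near absent in both groups. In such bulk libraries fewer cells of a type and less RNA per cell cannot be told apart. Of 4 blood markers LYZ and CD3E had no read, and of 4 endothelial markers KDR had none. The endothelial sum was 2.14 to 2.70 CPM in N_28 libraries and 1.22 to 1.57 CPM in control libraries, nearly all of it PECAM1. The sum of 4 renal markers ran from 179 to 249 CPM in N_28 libraries and from 220 to 280 CPM in control libraries, with PAX2, a factor of kidney development, at 119 to 182 CPM in N_28 libraries and 114 to 180 CPM in control libraries. The sum of 7 mesenchymal markers ran from 2098 to 2197 CPM in N_28 libraries and from 2303 to 2414 CPM in control libraries, and that of 4 epithelial markers from 386 to 430 CPM in N_28 libraries and from 469 to 543 CPM in control libraries. The marker levels thus go against the liver origin that the label Huh7 implies, and the cells are called by their library names.

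OPA1 itself was lower in the knock-down. The gene lies on the plus strand of chromosome 3 from 193593144 to 193697823 (ENSG00000198836; coordinates throughout are those of GENCODE release 29 on GRCh38). OPA1 had 53.3, 55.7 and 57.8 CPM in N_28 libraries, against 82.8, 92.9 and 90.5 CPM in control libraries. The groups did not overlap, and the transcript remained present at more than 50 CPM in every knock-down library. This is a log2 fold change of -0.68 (SE 0.06, adjusted p = 1.38e-05, quasi-likelihood test of edgeR, adjusted over all 15019 genes after Benjamini and Hochberg, as is every adjusted p in the text). Reads of the antisense gene OPA1-AS1, which lies inside OPA1, cannot be told apart from it without strand.

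Of the 15019 tested genes, 675 rose (4.49%) and 863 fell (5.75%) in N_28 against control at an adjusted p under 0.05, together 10.2%. Most changes were small: 862 of the 1538 called genes moved by less than 0.5 on the log2 scale, the median called rise was 0.42 and the median called fall -0.47. At a size of at least 1 on the log2 scale there were 72 rises and 170 falls. The libraries of N_28 and control did not overlap for 1526 of the 1538 called genes, while 28.7% of all tested genes showed no overlap. The median change over all tested genes was -0.00. With each of the 6 libraries left out in turn, 777 genes stayed called in every such fit (312 higher, 465 lower). The count was 967 without N_28 replicate 1 (399 higher and 568 lower), of which 934 genes were also called with all libraries, and without N_28 replicate 2 the higher genes numbered 442. Each called gene described in what follows kept its call whichever library was left out unless a lost call is given. Counts of called members in gene lists and families stand against the shares of 4.49% higher and 5.75% lower over all tested genes.

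**Figure D1:**
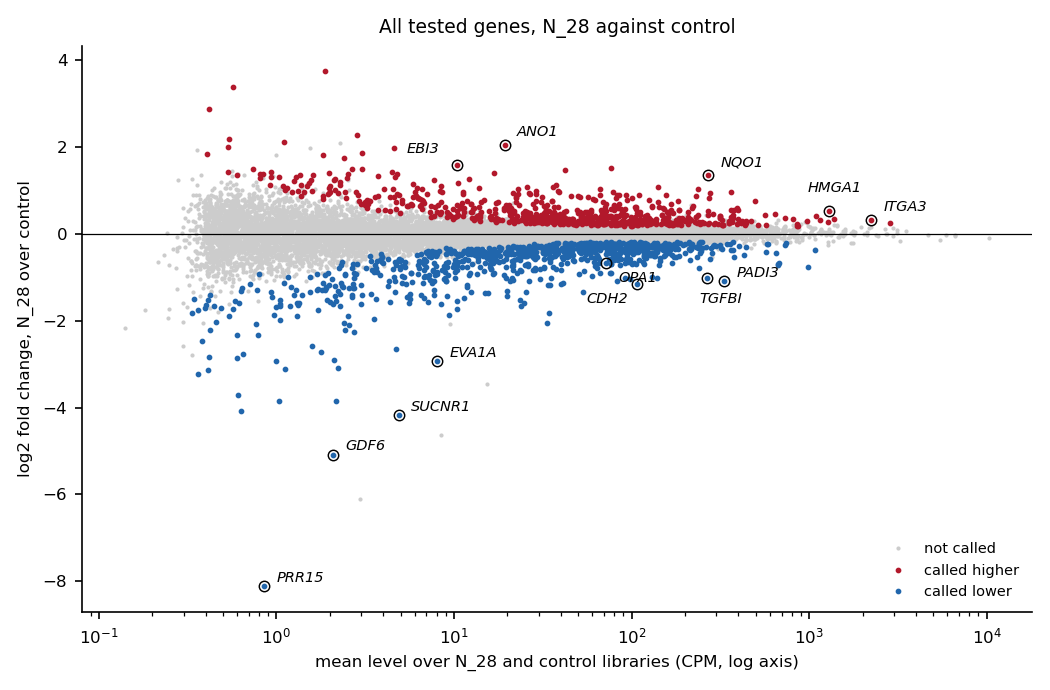
Each point is 1 of 15019 tested genes, with its mean level over the 6 N_28 and control libraries (CPM, log axis) on the x axis and the log2 fold change of N_28 over control on the y axis. The 675 genes called higher are red and the 863 called lower are blue, and falls reach further from 0 than rises among genes of low level, with PRR15, GDF6 and SUCNR1 the lowest called genes.

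Among the largest rises of genes averaging 5 CPM or more were those of ANO1, NQO1 and EBI3. ANO1 (ENSG00000131620, chromosome 11, 70078302 to 70189528, plus strand), a calcium-activated chloride channel, had 27.5, 30 and 35.7 CPM in N_28 libraries, against 7.58, 7.92 and 6.95 CPM in control libraries. Its lowest N_28 library lay far above its highest control, with a log2 fold change of 2.06 (SE 0.12, adjusted p = 7.72e-07). NQO1 (ENSG00000181019, chromosome 16, 69706996 to 69726951, minus strand), which reduces quinones with NADPH, had 458, 341 and 369 CPM in N_28 libraries, against 139, 183 and 135 CPM in control libraries. That is a rise of 1.35 (SE 0.14, adjusted p = 4.26e-05), with the N_28 libraries spread wider than the controls. EBI3, a subunit shared by the cytokines IL-27 and IL-35, had 16.1, 13.4 and 17.1 CPM in N_28 libraries and 4.94, 5.93 and 4.75 CPM in control libraries (1.58, SE 0.14). Matricellular TINAGL1 rose by 1.52, the small leucine-rich proteoglycan biglycan (BGN) by 1.48, and MYH14, a heavy chain of non-muscle myosin II, by 1.40. Further rises were seen in UNC13D, a vesicle priming factor of secretory granules (1.27), tissue plasminogen activator PLAT (1.13) and FAM50B (1.11). FA2H, which hydroxylates fatty acids of sphingolipids, rose by 1.09, as did F2RL1, the protease-activated receptor PAR2. NFE2L3, a transcription factor of the NRF2 family, rose by 1.08, the drug-metabolising enzyme CYP3A5 by 1.07, and ANXA8L1 by 1.15, although reads of ANXA8L1 may be shared with its near copy ANXA8. The highest adjusted p among these 14 was 0.00127.

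The largest falls of genes averaging 5 CPM or more were led by EVA1A and ADGRL4. EVA1A, a lysosome and endoplasmic reticulum protein linked to autophagy, had 1.97, 2.09 and 1.57 CPM in N_28 libraries, against 12.5, 13.6 and 16.4 CPM in control libraries, a change of -2.92 (SE 0.15, adjusted p = 3.5e-07). ADGRL4, an adhesion G protein-coupled receptor best known from endothelial cells, had 11.7, 12.5 and 14.8 CPM in N_28 libraries, against 46.4, 57.7 and 58.4 CPM in control libraries (-2.05, SE 0.13). In both genes every N_28 library lay below every control by a wide margin. IL13RA2, a decoy receptor for interleukin-13, had 18.2, 15.2 and 12.4 CPM in N_28 libraries and 45.9, 66.1 and 49.1 CPM in control libraries (-1.82, SE 0.16). The laminin chain LAMA3, a part of the epithelial anchor laminin-332, had 9.83, 10.8 and 13.9 CPM in N_28 libraries and 38.4, 33.5 and 37.6 CPM in control libraries (-1.66, SE 0.11). Tissue factor (F3), which starts blood clotting, fell by 1.62, the protein cross-linking enzyme TGM2 by 1.59, and neogenin (NEO1), a receptor for netrins and repulsive guidance molecules, by 1.54. The remaining 8 of the 15 were TMEM158 (-1.86), CPED1 (-1.74), the Rac activator DOCK2 (-1.59), FRMPD4 (-1.57), TMEM171 (-1.52), FIBCD1 (-1.51), the formin-related DAAM2 (-1.48) and the glycosyltransferase GBGT1 (-1.47). No adjusted p among these 15 exceeded 0.00218.

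**Figure D2:**
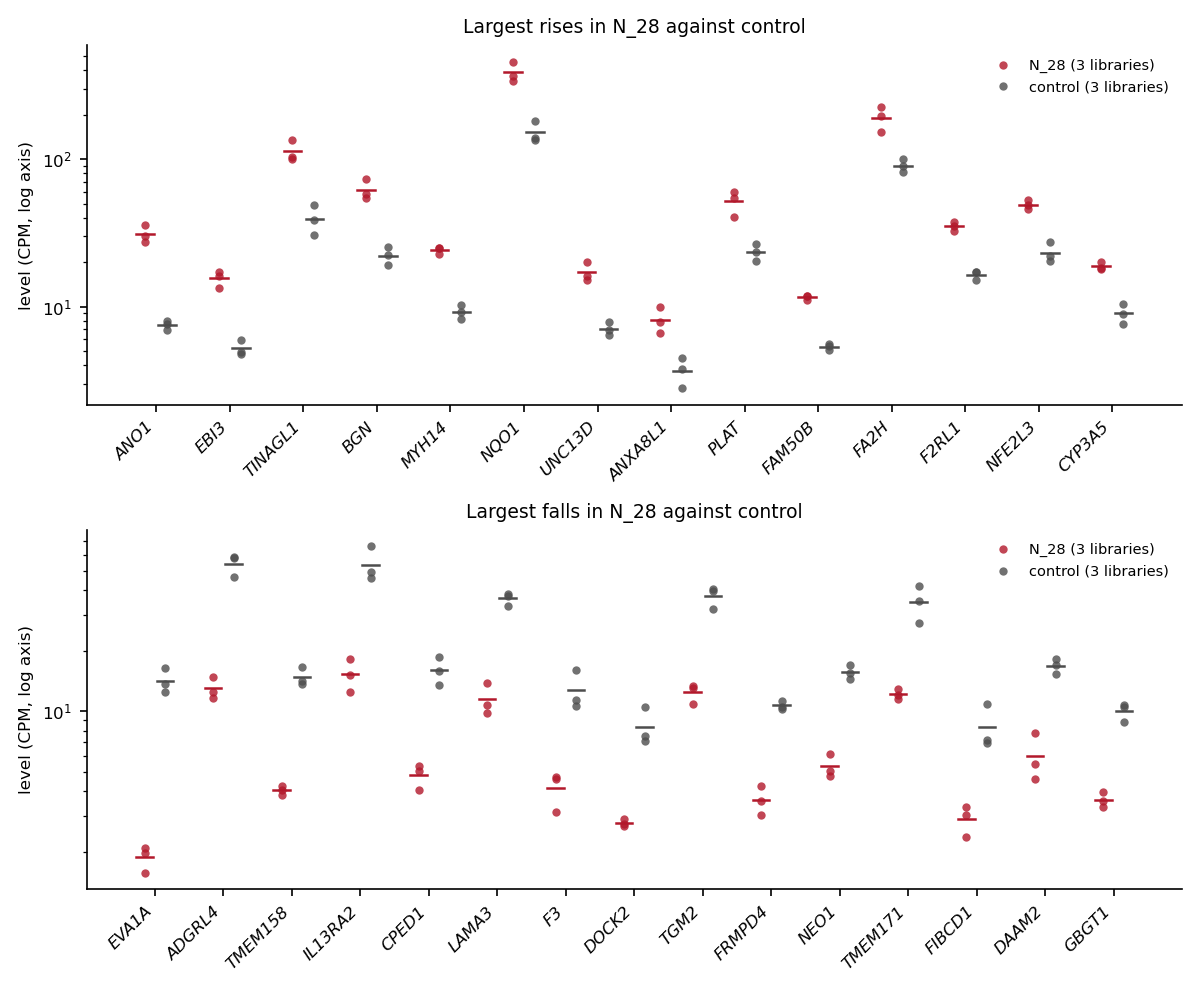
Levels in CPM (log axis) of 14 of the 15 largest rises and the 15 largest falls among called genes whose mean reached 5 CPM and whose groups did not overlap, for the 3 N_28 libraries (red, left) and the 3 control libraries (grey, right), with a line at each group mean. By that condition the N_28 points of each gene sit wholly above or wholly below the control points, with NQO1 at 341 to 458 CPM in N_28 libraries and 135 to 183 CPM in control libraries.

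Among the genes with the most reads, the changes were smaller. The chromatin architectural gene HMGA1 had 1641, 1400 and 1536 CPM in N_28 libraries, against 1023, 1082 and 1080 CPM in control libraries (0.52, SE 0.08, adjusted p = 0.000873). Its relative HMGA2 rose by 0.56. SFRP1, a secreted antagonist of Wnt ligands, had 553, 613 and 700 CPM in N_28 libraries, against 393, 349 and 370 CPM in control libraries (0.75, SE 0.10). Rises were also called for IGFN1 (0.96), the neurotensin receptor NTSR1 (0.94), the kinase ERK5 gene MAPK7 (0.61), the glycosyltransferase MGAT4B (0.56) and syndecan-1 (SDC1, 0.55). Of the abundant falls, 2 were peptidylarginine deiminases, enzymes that turn arginine in proteins to citrulline. PADI3 had 216, 209 and 213 CPM in N_28 libraries, against 462, 415 and 479 CPM in control libraries (-1.09, SE 0.07, adjusted p = 7.72e-07), and PADI2 had 748, 766 and 686 CPM in N_28 libraries, against 1342, 1141 and 1231 CPM in control libraries (-0.76, SE 0.08). TGFBI, a matrix protein induced by TGF-beta, fell by 1.02, thrombospondin-1 (THBS1) by 0.72, DPYSL3, known from neuronal growth cones, by 0.69, the translocon protein TRAM1 by 0.67 and the keratin KRT80 by 0.57.

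Of the genes called lower with a control mean of at least 1 CPM, 19 had an N_28 mean under 1 part in 5 of the control mean and are described as nearly lost. The succinate receptor gene SUCNR1 (ENSG00000198829, chromosome 3, 151873643 to 151884619, plus strand) had 0.433, 0.934 and 0.218 CPM in N_28 libraries, against 11.2, 8.79 and 7.67 CPM in control libraries. In reads this was 31 over the 3 N_28 libraries and 572 over the 3 control libraries, a ratio of 0.0546 after scaling (95% counting interval 0.0367 to 0.0784), with an adjusted p of 2.79e-05. PRR15 had no read in N_28 libraries and 106 reads in control libraries, so it was at least 11.7-fold lower (floor of 3 reads in each library). The growth factor gene GDF6 had 7 reads against 249, the fibroblast protease FAP 4 against 74, the Wnt and TGF-beta modulator DACT1 17 against 253, transferrin (TF) 29 against 249 and the monoamine oxidase MAOB 30 against 229. IGF2 had 14 reads in N_28 libraries and 110 in control libraries, some of which may belong to the read-through gene INS-IGF2 that overlaps it. The others were EVA1A, BMPR1B, MSC, C4BPA, PDE11A, ST6GALNAC5, TNFAIP8L3, ST18 and the non-coding genes LINC02735, LINC01405 and AP002761.4. The call of ST18 was lost without control replicate 1 (adjusted p = 0.0601), control replicate 2 (0.0841), N_28 replicate 2 (0.0703) or N_28 replicate 3 (0.0643). By the opposite measure, with an N_28 mean of at least 1 CPM, 2 genes were gained, SMIM32 with 219 reads in N_28 libraries against 16 in control libraries (ratio 13.8, 8.30 to 24.6) and LINC03057 with 66 against 6 (ratio 11.1, 4.83 to 31.3).

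NF-kB is a family of transcription factors held in the cytoplasm by IkB proteins, several of which are themselves induced by it, so that their mRNA is often read as a trace of the pathway. Of 54 tested genes of the pathway, its cytokines and cytokine receptors, out of 63 listed, 16 rose (background 4.49%) and 8 fell (background 5.75%), with a median of 0.16. Among the 14 pathway genes proper 6 rose and 2 fell, with a median of 0.30. RELB, the partner of the non-canonical arm, had 41.3, 34.7 and 40.2 CPM in N_28 libraries, against 21.6, 27.2 and 20.9 CPM in control libraries (0.74, SE 0.14, adjusted p = 0.00455). BIRC2, which encodes the ubiquitin ligase cIAP1, had 104, 93.1 and 93.8 CPM in N_28 libraries, against 51.9, 73.2 and 59.7 CPM in control libraries (0.66, SE 0.10). NFKBIE, which encodes IkB-epsilon, rose by 0.66. NFKBIA, the gene of IkB-alpha, had 74.4, 59.1 and 58.8 CPM in N_28 libraries, against 43, 48.4 and 43.3 CPM in control libraries (0.51, SE 0.12, adjusted p = 0.0115), a call lost without control replicate 1 (0.0522) or N_28 replicate 1 (0.0624). NFKB2, the precursor of the p52 subunit, rose by 0.61, and lost the call without control replicate 1 (0.0736), control replicate 3 (0.0559) or N_28 replicate 1 (0.0709). NFKBIB rose by 0.30, and lost it without control replicate 1 (0.0601), N_28 replicate 1 (0.0734) or N_28 replicate 2 (0.0697). In the other direction NFKBIZ, an atypical nuclear IkB, fell by 0.46, and lost the call without control replicate 1 (0.109), control replicate 3 (0.0545), N_28 replicate 1 (0.121) or N_28 replicate 2 (0.0719). The subunit genes NFKB1 (0.20, adjusted p = 0.144) and RELA (0.07, adjusted p = 0.518) did not pass. Of the 16 rises in the whole list 7 held whichever library was left out. The rises numbered 8 without N_28 replicate 1 and 9 without control replicate 1, and the falls 3 without control replicate 1, N_28 replicate 1 or N_28 replicate 2 and 5 without control replicate 3 or N_28 replicate 3.

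Start regions are shown for the called pathway genes that hold letters of the kind NF-kB is known to bind. The word searched was GGGA and TTCC with 2 bases of any kind between them, on both strands, in RefSeq promoters of build GRCh38.p14 that run from 250 bases before to 50 bases after a gene start. It occurred in 1.61% of 35116 promoters, and 537 of 27305 genes (1.97%) had it in at least 1 of their promoters. Of the 14 pathway genes 12 matched the promoter table by symbol (all but RELB and NFKBIE) and 7 held the word. Of the 8 called genes 4 held it, each of which lost its call in some fit without a library. BIRC2 and TNFAIP2 did not hold it, while the uncalled NFKB1, REL and TNFAIP3 did. TNFAIP2 was called lower, and lost the call without control replicate 1 (0.121) or control replicate 3 (0.14). It was also lost without N_28 replicate 1 (0.0549), N_28 replicate 2 (0.185) or N_28 replicate 3 (0.0808). Capitals mark the matches, counted from the gene start, and each sequence reads 5′ to 3′ on the gene's strand. NFKB2 (chr10:102395455-102395754, plus strand, 1 of 3 listed starts) held it from base -21, NFKBIA (chr14:35404700-35404999, minus strand) from base -81 on the opposite strand, NFKBIB (chr19:38899719-38900018, plus strand) from base -28 as 2 overlapping matches on both strands, and NFKBIZ (chr3:101827740-101828039, plus strand) from base -223. The first 3 rose and NFKBIZ fell, so the word stood before genes of both directions. A match is a description of letters and says nothing of binding in these cells.
NFKB2: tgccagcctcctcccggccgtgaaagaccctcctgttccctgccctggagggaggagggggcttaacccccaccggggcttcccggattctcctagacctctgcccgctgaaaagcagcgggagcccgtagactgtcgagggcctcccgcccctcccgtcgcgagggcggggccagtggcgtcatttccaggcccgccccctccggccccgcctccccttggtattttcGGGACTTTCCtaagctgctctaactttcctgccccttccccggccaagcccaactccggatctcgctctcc
NFKBIA: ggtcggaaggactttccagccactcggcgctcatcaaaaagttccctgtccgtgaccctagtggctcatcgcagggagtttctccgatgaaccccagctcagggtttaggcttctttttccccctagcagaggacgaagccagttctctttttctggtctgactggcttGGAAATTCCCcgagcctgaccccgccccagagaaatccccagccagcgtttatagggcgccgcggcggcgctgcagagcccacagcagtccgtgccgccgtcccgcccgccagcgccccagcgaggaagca
NFKBIB: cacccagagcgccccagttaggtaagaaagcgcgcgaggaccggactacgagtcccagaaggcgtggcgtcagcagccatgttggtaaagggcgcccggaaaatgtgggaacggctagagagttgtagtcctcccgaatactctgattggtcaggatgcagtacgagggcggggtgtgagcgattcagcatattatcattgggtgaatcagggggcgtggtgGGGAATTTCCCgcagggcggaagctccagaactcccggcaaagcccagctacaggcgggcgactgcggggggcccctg
NFKBIZ: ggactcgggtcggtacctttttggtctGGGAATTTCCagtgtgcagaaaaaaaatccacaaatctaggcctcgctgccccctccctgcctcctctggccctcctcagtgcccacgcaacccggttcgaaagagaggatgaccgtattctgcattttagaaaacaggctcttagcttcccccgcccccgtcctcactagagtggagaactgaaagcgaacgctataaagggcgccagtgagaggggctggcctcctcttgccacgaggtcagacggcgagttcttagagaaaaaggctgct

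Calls among secreted products and receptors went both ways. Of 17 tested secreted cytokines EBI3 and CLCF1 rose, CXCL6 fell by 0.38, and CXCL8, the neutrophil attractant interleukin-8, had 187, 168 and 106 CPM in N_28 libraries and 103, 164 and 97.6 CPM in control libraries, overlapping groups with an adjusted p of 0.461. The call of CLCF1 (0.26) was lost in each fit with a library left out, at adjusted p-values up to 0.149. Of 23 receptors and adhesion genes 8 rose and 5 fell. IL4R had 81.9, 75.5 and 83.6 CPM in N_28 libraries, against 51.1, 55.7 and 57.3 CPM in control libraries (0.56, SE 0.07, adjusted p = 0.000118). IL6R rose by 0.50 and the TRAIL receptor TNFRSF10B by 0.43, while the interleukin-1 receptor IL1R1 fell by 1.16. ICAM1, an adhesion molecule for leukocytes, stood at -0.22 (adjusted p = 0.441).

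Immediate early genes are switched on within minutes of a growth or stress signal, and many of them encode AP-1 or feedback phosphatases. Of 33 tested, 9 rose (background 4.49%) and 3 fell (background 5.75%), with a median of 0.06. The MAP kinase phosphatase DUSP4 had 348, 306 and 390 CPM in N_28 libraries, against 185, 193 and 209 CPM in control libraries (0.83, SE 0.10, adjusted p = 0.00011). Its relative DUSP5 rose by 0.78 and SPRY4, another feedback inhibitor of ERK signalling, by 0.54. KLF2 had 7.03, 6.6 and 5.94 CPM in N_28 libraries, against 2.74, 2.3 and 2.2 CPM in control libraries (1.43, SE 0.16). FOSL2 rose by 0.31, ID2 by 0.58 and the circadian repressor BHLHE41 by 0.63. Its paralog BHLHE40 went the other way with 18.1, 18 and 15 CPM in N_28 libraries, against 43.3, 29.5 and 34.8 CPM in control libraries (-1.08, SE 0.12), and JUNB fell by 1.04. FOSL1 rose by 0.38, and lost the call without control replicate 1 (adjusted p = 0.0697) or N_28 replicate 1 (0.0724), and JUN rose by 0.24, and lost it without N_28 replicate 1 (0.0875). Relatives within the list thus moved in opposite directions.

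EGF receptor ligands are made as membrane precursors and cut free, and of the LRIG proteins LRIG1 is known to lower receptor levels. Of 13 tested genes of this family 3 ligands rose (background 4.49%) and the 2 LRIG genes called both fell (background 5.75%). Epiregulin (EREG) had 324, 310 and 257 CPM in N_28 libraries, against 143, 189 and 158 CPM in control libraries (0.86, SE 0.10, adjusted p = 0.000105). HBEGF had 137, 140 and 113 CPM in N_28 libraries, against 59.4, 84.9 and 73.5 CPM in control libraries (0.84, SE 0.14). For both ligands every N_28 library lay above every control. Neuregulin NRG1 rose by 0.29. LRIG3 had 12.5, 12.5 and 14.4 CPM in N_28 libraries, against 28.6, 22.4 and 24.6 CPM in control libraries (-0.94, SE 0.11), and LRIG1 fell by 0.40. EGFR itself had 338, 370 and 312 CPM in N_28 libraries and 298, 293 and 285 CPM in control libraries, with an adjusted p of 0.0517 that did not pass.

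The urokinase system turns plasminogen into plasmin at the cell surface. Of its 6 tested genes 3 rose (background 4.49%) and 0 fell (background 5.75%), the rises being those of 2 activators and the receptor. The urokinase receptor PLAUR had 95.4, 82.6 and 82.1 CPM in N_28 libraries, against 41.8, 49.3 and 49.7 CPM in control libraries (0.89, SE 0.09, adjusted p = 4.28e-05). Urokinase (PLAU) had 273, 250 and 269 CPM in N_28 libraries, against 169, 186 and 168 CPM in control libraries (0.60, SE 0.07). PLAT had 54.2, 59.9 and 40.8 CPM in N_28 libraries, against 26.6, 20.5 and 23.3 CPM in control libraries. Among 22 metalloproteases and their inhibitors 7 fell (background 5.75%) and 2 rose (background 4.49%), with a median of 0.08. MMP10 fell by 2.05, the aggrecan-cutting relative ADAMTS15 by 0.89, MMP16 by 0.64 and MMP24 by 0.44, while MMP15 rose by 0.68 and the inhibitor TIMP2 by 0.37. The 7 falls were 4 without control replicate 1 or N_28 replicate 1.

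TGF-beta and BMP ligands signal through paired receptors to SMAD proteins, and secreted antagonists such as noggin catch the ligands. Of 35 tested genes 9 fell (background 5.75%) and 2 rose (background 4.49%), with a median of -0.15. GDF6, a BMP ligand, had 0.0482, 0.11 and 0.175 CPM in N_28 libraries, against 5.62, 4.5 and 2.06 CPM in control libraries. The receptor BMPR1B had 0.337, 0.55 and 0.524 CPM in N_28 libraries, against 3.28, 3.27 and 2.78 CPM in control libraries (-2.71, SE 0.25, adjusted p = 1.43e-05). The TGF-beta type I receptor TGFBR1 had 11.6, 12.3 and 11.1 CPM in N_28 libraries, against 21.7, 23.4 and 20.5 CPM in control libraries (-0.91, SE 0.10). Scarce genes such as GDF6 and BMPR1B could pass the filter through the libraries where they were higher, so they add no support to the direction of the count. Falls were called in 6 of 19 ligands and antagonists and in 3 of 16 receptors and effectors. INHBB, an activin subunit, fell by 1.35, noggin (NOG) by 1.40 and follistatin-like FSTL1 by 1.15. BMP6 (0.66) and the activin subunit INHBA (0.37) rose. With 1 library left out the falls numbered from 6 to 10.

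In the Notch pathway ligands on a cell activate receptors on its neighbour. Of its 19 tested genes 4 rose (background 4.49%) and 1 fell (background 5.75%), with a median of 0.22. The atypical ligand DLK1 had 130, 162 and 186 CPM in N_28 libraries, against 115, 81.2 and 79.7 CPM in control libraries (0.79, SE 0.15, adjusted p = 0.00304), and the feedback target NRARP rose by 0.96. JAG1, a main ligand, had 135, 140 and 139 CPM in N_28 libraries, against 203, 184 and 173 CPM in control libraries (-0.44, SE 0.08). NOTCH1 stood at 0.20 (adjusted p = 0.0988) and did not pass. The 4 rises were 2 without control replicate 2, N_28 replicate 1 or N_28 replicate 3. Of 29 tested Wnt genes 3 rose (background 4.49%) and 2 fell (background 5.75%). Of these SFRP1 (higher) and the receptor FZD6 (-0.44) held in every fit with a library left out. The Wnt rises were 1 without control replicate 2 or N_28 replicate 2, and the falls 1 without control replicate 1, N_28 replicate 1 or N_28 replicate 2 and 4 without control replicate 3. In the insulin-like growth factor axis the ligand IGF2 was nearly lost, the receptor IGF1R had 60.7, 59.5 and 59.5 CPM in N_28 libraries, against 96, 86.3 and 84.6 CPM in control libraries (-0.57, SE 0.07, adjusted p = 0.000172), and the binding proteins IGFBP1 (1.38) and IGFBP2 (0.57) rose.

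**Figure D3:**
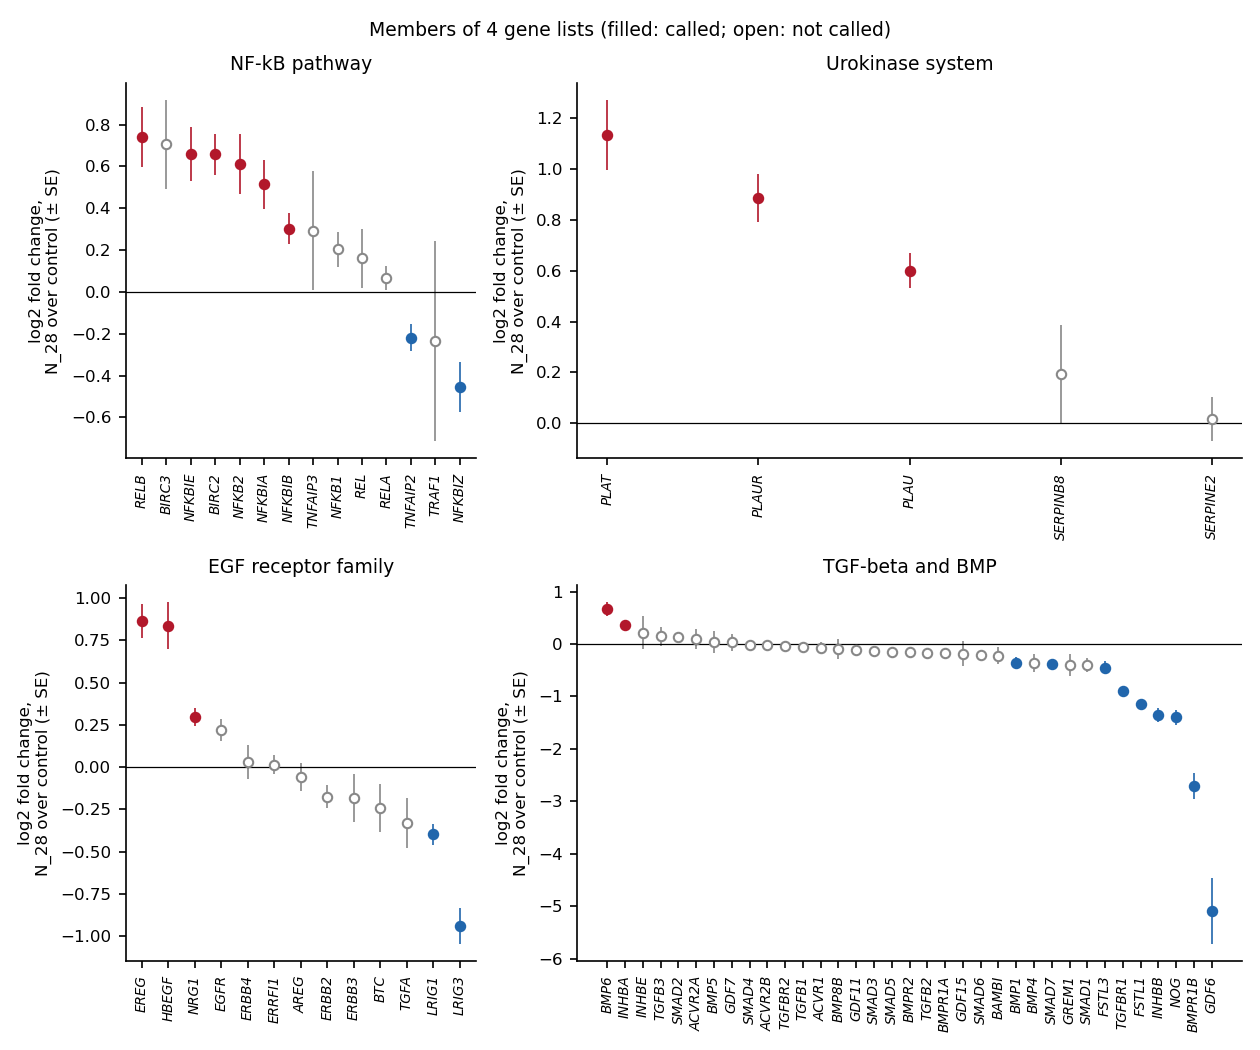
Log2 fold change of N_28 over control with its SE for tested members of 4 gene lists, ordered by size, with filled points for called genes and open points for the others. In the NF-kB list 6 of 14 members are called higher and 2 lower, in the EGF receptor family 3 of 13 higher and 2 lower, in the urokinase system 3 of 5 drawn higher and 0 lower, and in TGF-beta and BMP 2 of 35 higher and 9 lower.

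Surface proteoglycans and basement membrane genes changed in both directions. Of 16 tested proteoglycans 4 rose (background 4.49%) and 2 fell (background 5.75%), each holding whichever library was left out. BGN had 57.7, 54.4 and 73.2 CPM in N_28 libraries, against 22.2, 19 and 25.2 CPM in control libraries, and syndecans SDC4 (0.58), SDC3 (0.56) and SDC1 (0.55) rose, while the glypican GPC1 had 45, 49.2 and 47.1 CPM in N_28 libraries, against 94.7, 73.6 and 66.5 CPM in control libraries (-0.73, SE 0.11, adjusted p = 0.00074). Among 24 basement membrane and matrix glycoproteins 4 rose and 6 fell. Laminin gamma-1 (LAMC1, 0.36) and fibulin-1 (FBLN1, 0.50) rose, and nidogen-2 (NID2) fell by 1.02 beside LAMA3, TGFBI and THBS1. Of 25 tested collagens 4 rose and 0 fell, a count that was 1 without control replicate 2, control replicate 3, N_28 replicate 2 or N_28 replicate 3. COL11A1, a fibril-nucleating chain, held throughout, with 258, 304 and 397 CPM in N_28 libraries, against 155, 128 and 181 CPM in control libraries (1.05, SE 0.17, adjusted p = 0.00104). The neighbours COL4A1 (0.39) and COL4A2 (0.30) lie on chromosome 13, whose tested genes had a median of 0.17, and the part of that shift in their values was not tested. Each lost its call without control replicate 2, control replicate 3, N_28 replicate 2 or N_28 replicate 3, with adjusted p-values from 0.0661 to 0.0982 for COL4A1 and from 0.0681 to 0.0850 for COL4A2.

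Adhesion receptors changed in both directions. Of 16 tested integrins 5 rose (background 4.49%) and 4 fell (background 5.75%), with a median of -0.00. ITGA6, which pairs to bind laminin, had 216, 224 and 208 CPM in N_28 libraries, against 166, 166 and 171 CPM in control libraries (0.36, SE 0.06, adjusted p = 0.000973), and the collagen-binding ITGA10 rose by 0.86. ITGA4 had 22.2, 23.6 and 21.2 CPM in N_28 libraries, against 39.5, 37.8 and 39.1 CPM in control libraries (-0.80, SE 0.08), the collagen receptor ITGA1 fell by 0.74 and ITGB6, which frees latent TGF-beta, by 1.18. The 5 rises were 3 without control replicate 2, control replicate 3, N_28 replicate 2 or N_28 replicate 3. N-cadherin (CDH2), the cadherin of mesenchymal cells, had 63.7, 69.2 and 66.5 CPM in N_28 libraries, against 155, 147 and 140 CPM in control libraries (-1.15, SE 0.07, adjusted p = 7.72e-07). E-cadherin (CDH1) stayed between 1.48 and 2.64 CPM in N_28 libraries and between 1.30 and 2.49 CPM in control libraries (adjusted p = 0.828), and vimentin (VIM) stood at -0.07 (adjusted p = 0.476). At junctions MCAM (0.89), JAM3 (0.80) and NECTIN3 (0.45) rose, and JAM2 (-1.28) and NECTIN1 (-0.46) fell.

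Vessel growth factors and their receptors were called lower more than higher. Of 24 tested angiogenic genes 8 fell (background 5.75%) and 3 rose (background 4.49%), and 7 of the falls held whichever library was left out. Neuropilin-2 (NRP2), a co-receptor for VEGF-C and semaphorins, had 78.3, 85.4 and 96.7 CPM in N_28 libraries, against 197, 154 and 171 CPM in control libraries (50% of the control mean, adjusted p = 1.73e-05). NRP1 fell by 0.30, PDGFA by 1.09, EPHB4 by 0.41 and EFNA1 by 0.89. Angiopoietin-1 (ANGPT1) rose by 0.67 and the hepatocyte growth factor receptor MET by 0.30. VEGFA had 126, 112 and 118 CPM in N_28 libraries and 125, 123 and 130 CPM in control libraries (adjusted p = 0.421). PDGFB (-0.29) is on chromosome 22, where the median of all tested genes was -0.11.

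Of 32 tested actin and myosin genes 7 fell (background 5.75%) and 1 rose (background 4.49%), with a median of -0.09. The regulatory light chain MYL9 had 171, 185 and 173 CPM in N_28 libraries, against 311, 275 and 332 CPM in control libraries (-0.80, SE 0.08, adjusted p = 2.81e-05). MRTFA, a coactivator that senses free actin and lies on chromosome 22, fell by 0.50, and the tropomyosin TPM4 by 0.28. The heavy chain MYH14 had 25, 22.8 and 24.9 CPM in N_28 libraries, against 10.2, 8.23 and 9.24 CPM in control libraries, while MYH9, the main heavy chain, stood at -0.21 (adjusted p = 0.0528) and ACTB at -0.03 (adjusted p = 0.784). Without N_28 replicate 1 or N_28 replicate 2 the falls were 3. Among 12 tested keratins KRT20, a keratin of gut and urinary epithelium, had 4.24, 4.4 and 5.59 CPM in N_28 libraries, against 1.27, 0.46 and 1.17 CPM in control libraries (2.28, SE 0.27, adjusted p = 0.000115). Simple-epithelial KRT8 (-0.37) and KRT7 (-0.41) fell together with KRT80. KRT18, the partner of KRT8, stood at -0.04 (adjusted p = 0.774).

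Genes of plasma proteins made by the liver were scarce in these cells, and the calls among them were falls. Of 49 listed genes 15 passed the filter, and of these 7 fell (background 5.75%) and 0 rose (background 4.49%), with a median of -0.66. A scarce gene could pass the filter through either group alone, and so through the control libraries where it was higher. The direction of this count therefore supports nothing. The fibrinogen chains FGA and FGG fell together: FGA had 0.578, 0.605 and 0.48 CPM in N_28 libraries, against 2.2, 2.35 and 1.66 CPM in control libraries (-1.89, SE 0.29, adjusted p = 0.000902), and FGG fell by 1.61. Transferrin (TF) had 0.289, 0.22 and 0.83 CPM in N_28 libraries, against 5.38, 3.32 and 3.32 CPM in control libraries, and ITIH2 fell by 1.39. Most of these levels were a few CPM, and at a bound of 5 CPM the falls were 2. They were 4 without control replicate 1 or N_28 replicate 3. APOE, an apolipoprotein of lipid transport, ran from 116 to 140 CPM in N_28 libraries and from 129 to 161 CPM in control libraries and did not pass (adjusted p = 0.51). Among 15 tested complement genes, of 30 listed, 4 fell (background 5.75%) and 0 rose (background 4.49%). Scarce members such as C4BPA could likewise pass the filter through the libraries where they were higher, so the direction of this count supports nothing either. C3, on which all complement routes converge, had 14.6, 10.1 and 15.2 CPM in N_28 libraries, against 29.2, 31.9 and 23.8 CPM in control libraries (-1.08, SE 0.17, adjusted p = 0.000819), and the inhibitor chain C4BPA had 0.53, 0.11 and 0.655 CPM in N_28 libraries, against 3.37, 2.66 and 2.15 CPM in control libraries. The complement falls were 2 without control replicate 1, N_28 replicate 1 or N_28 replicate 2. Of 17 tested bile acid and hepatic enzymes 3 rose and 3 fell: BAAT, which joins bile acids to taurine or glycine, fell by 1.22, NNMT by 1.41 and AADAC by 1.75, and CYP3A5 rose. These 3 rises were 1 without control replicate 2, control replicate 3, N_28 replicate 1 or N_28 replicate 2.

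Transcription factors that mark lineages were called in both directions. Of 38 tested, 4 rose (background 4.49%) and 6 fell (background 5.75%). The endoderm factors FOXA2 (0.41) and ONECUT1 (0.92) rose, as did TFAP2C (0.52). Of the 16 tested liver and endoderm factors 2 rose and 2 fell, with a median of -0.085. The falls were those of PROX1 and NR5A2. Each lost its call in 4 fits with a library left out. The adjusted p-values there reached 0.101 for PROX1 and 0.132 for NR5A2. LHX1, a factor of the early kidney, had 51.5, 51.2 and 56.8 CPM in N_28 libraries, against 102, 101 and 94.4 CPM in control libraries (-0.90, SE 0.11, adjusted p = 0.000105), and the divergent transcript LHX1-DT beside it fell by 0.85. Musculin (MSC) had 1.25, 1.26 and 1.31 CPM in N_28 libraries, against 8.95, 8.99 and 6.37 CPM in control libraries. PAX9 fell by 0.69 and RUNX1 by 1.24. Of 39 HOX genes 13 passed the filter, and all 13 estimates were above 0 with a median of 0.81, but a gene could pass through N_28 alone, so this count supports nothing, and 3 were called. HOXB7 had 3.23, 3.08 and 3.01 CPM in N_28 libraries, against 1.22, 1.58 and 1.48 CPM in control libraries (1.12, SE 0.22, adjusted p = 0.00444). The calls of HOXB9 and HOXB6 did not hold: without control replicate 3 their adjusted p-values were 0.0531 and 0.0765, HOXB9 was also lost without N_28 replicate 1 (0.0634), and HOXB6 without control replicate 2 (0.0895), N_28 replicate 2 (0.0652) or N_28 replicate 3 (0.0904).

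Receptors for metabolites and lipids split evenly. Of 17 tested out of 32 listed, 3 rose (background 4.49%) and 3 fell (background 5.75%), and all 6 held whichever library was left out. LPAR1, a receptor for lysophosphatidic acid, had 59, 64.7 and 71.3 CPM in N_28 libraries, against 34.6, 35.1 and 36.9 CPM in control libraries (0.87, SE 0.08, adjusted p = 1.9e-05). F2RL1 had 37.4, 35.1 and 32.4 CPM in N_28 libraries, against 17.1, 17.2 and 15.1 CPM in control libraries, and the sphingosine 1-phosphate receptor S1PR3 rose by 0.47. Beside SUCNR1, the nucleotide receptor P2RY2 fell by 1.40 and the prostaglandin E2 receptor PTGER2 by 2.02. Of 8 tested anoctamins ANO1 was the single rise. ANO6, a lipid scramblase, had 83.5, 91.9 and 94.1 CPM in N_28 libraries, against 114, 103 and 103 CPM in control libraries (-0.25), a call lost without control replicate 1 (0.112), N_28 replicate 1 (0.143) or N_28 replicate 2 (0.0756). Among other chloride channels CLIC1 rose by 0.27 and the lysosomal CLCN7 fell by 0.33.

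NRF2 is the transcription factor that answers oxidants and electrophiles, and NQO1 is its most cited target. Of 42 tested targets and glutathione genes 6 rose (background 4.49%) and 2 fell (background 5.75%), with a median of 0.10. The rise of NQO1 was not shared by most of the list: NQO2 rose by 0.51 and the glutathione peroxidase GPX1 by 0.29, while the aldo-keto reductase AKR1C3 had 130, 126 and 122 CPM in N_28 libraries, against 190, 162 and 186 CPM in control libraries (-0.51, SE 0.09, adjusted p = 0.00143). Heme oxygenase HMOX1 had 77.8, 47 and 31.3 CPM in N_28 libraries and 46.7, 81.2 and 36.7 CPM in control libraries, overlapping groups with an adjusted p of 0.93. GCLM, the modifier subunit for glutathione synthesis, had an adjusted p of 0.448. The light chain of ferritin (FTL) rose by 0.42, and lost the call without control replicate 1 (0.0957), control replicate 3 (0.0766) or N_28 replicate 1 (0.128). Without control replicate 3 or N_28 replicate 1 the rises in the list were 3, and the falls ran from 1 to 4.

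Few genes of mitochondrial form and function were called apart from OPA1. Of 26 tested genes of fusion, fission and cristae INF2, an actin nucleator at fission sites, had 462, 440 and 436 CPM in N_28 libraries, against 381, 328 and 351 CPM in control libraries (0.34, SE 0.06, adjusted p = 0.00285), and OPA1 fell. The outer-membrane fusion gene MFN2 (-0.02, adjusted p = 0.868) and IMMT of the cristae junction (0.07, adjusted p = 0.469) did not pass. By edgeR 0 of 35 complex I subunits and 0 of 13 mRNAs of mitochondrial DNA were called, and MT-CO1 stood at -0.09 (adjusted p = 0.683). COX7C, a subunit of complex IV, rose by 0.31, and MRPS16 of the mitochondrial ribosome fell by 0.43. In the TCA cycle SDHA, the subunit that oxidises succinate, stood at -0.19 (adjusted p = 0.0825). Of 28 glycolysis genes the glucose carrier SLC2A1 (-0.44) and PFKFB2 (-0.44) fell and the lactate exporter SLC16A3 rose by 1.04. Among 27 hypoxia targets 4 fell and 1, adrenomedullin (ADM, 0.62), rose, and the hypoxia factor EPAS1 fell by 0.50.

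The integrated stress response slows translation and induces amino acid genes, and of its 35 tested genes 3 rose and 1 fell, near the 10.2% called over all genes. None of these 3 rises held in every fit with a library left out, and the count was 0 without N_28 replicate 1, 1 without control replicate 1, control replicate 3 or N_28 replicate 2, and 5 without N_28 replicate 3. DDIT3, the CHOP gene, had 11, 9.18 and 7.99 CPM in N_28 libraries and 5.82, 7.41 and 6.55 CPM in control libraries, with an adjusted p of 0.0517. Of 27 genes of endoplasmic reticulum stress HERPUD1, which serves protein disposal, had 40.1, 37.4 and 40.7 CPM in N_28 libraries, against 26.4, 28 and 25.9 CPM in control libraries (0.56, SE 0.09, adjusted p = 0.00126). The chaperone HSPA5 stood at 0.18 (adjusted p = 0.231). In the lysosome 9 of 61 tested genes fell (background 5.75%) and 2 rose, with a median of -0.08: the proteases CTSA (-0.45), CTSC (-0.42) and CTSD (-0.37) and the proton pump subunit ATP6V1C1 (-0.41) fell, and TFE3, a transcription factor of lysosomal genes, rose by 0.39. The falls were 4 without control replicate 1, N_28 replicate 1 or N_28 replicate 2 and 5 without N_28 replicate 3, and the rises 1 in each fit without a library other than control replicate 1. Of 34 autophagy genes EVA1A and MAP1LC3A (-1.41) fell and 0 rose.

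Of 57 tested G1/S and replication genes 3 rose and 3 fell, a share near the 10.2% called over all genes. Cyclin D1 (CCND1) had 682, 676 and 595 CPM in N_28 libraries, against 453, 504 and 487 CPM in control libraries (0.44, SE 0.07, adjusted p = 0.00173). The flap endonuclease FEN1, which trims Okazaki fragments, had 69, 67.5 and 74.3 CPM in N_28 libraries, against 118, 110 and 109 CPM in control libraries (-0.68, SE 0.06, adjusted p = 1.07e-05). PCNA stood at -0.18 (adjusted p = 0.141). Of 38 G2/M genes TOP2A alone was called (-0.50), and lost the call without control replicate 3 (0.146), N_28 replicate 1 (0.146) or N_28 replicate 2 (0.119). Among 35 apoptosis genes 4 fell (background 5.75%) and 1 rose (background 4.49%). The survival gene BCL2 fell by 0.56, and the falls were 1 without control replicate 1, N_28 replicate 1 or N_28 replicate 3 and 2 without control replicate 3 or N_28 replicate 2. In innate immunity 5 of 27 interferon genes rose and 1 fell. OAS1 (0.78) and OAS3 (0.61), antiviral sensors of double-stranded RNA, and IRF1 (0.59) were the 3 rises left without control replicate 1. NLRC5, an activator of antigen presentation genes, fell by 1.13.

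**Figure D4:**
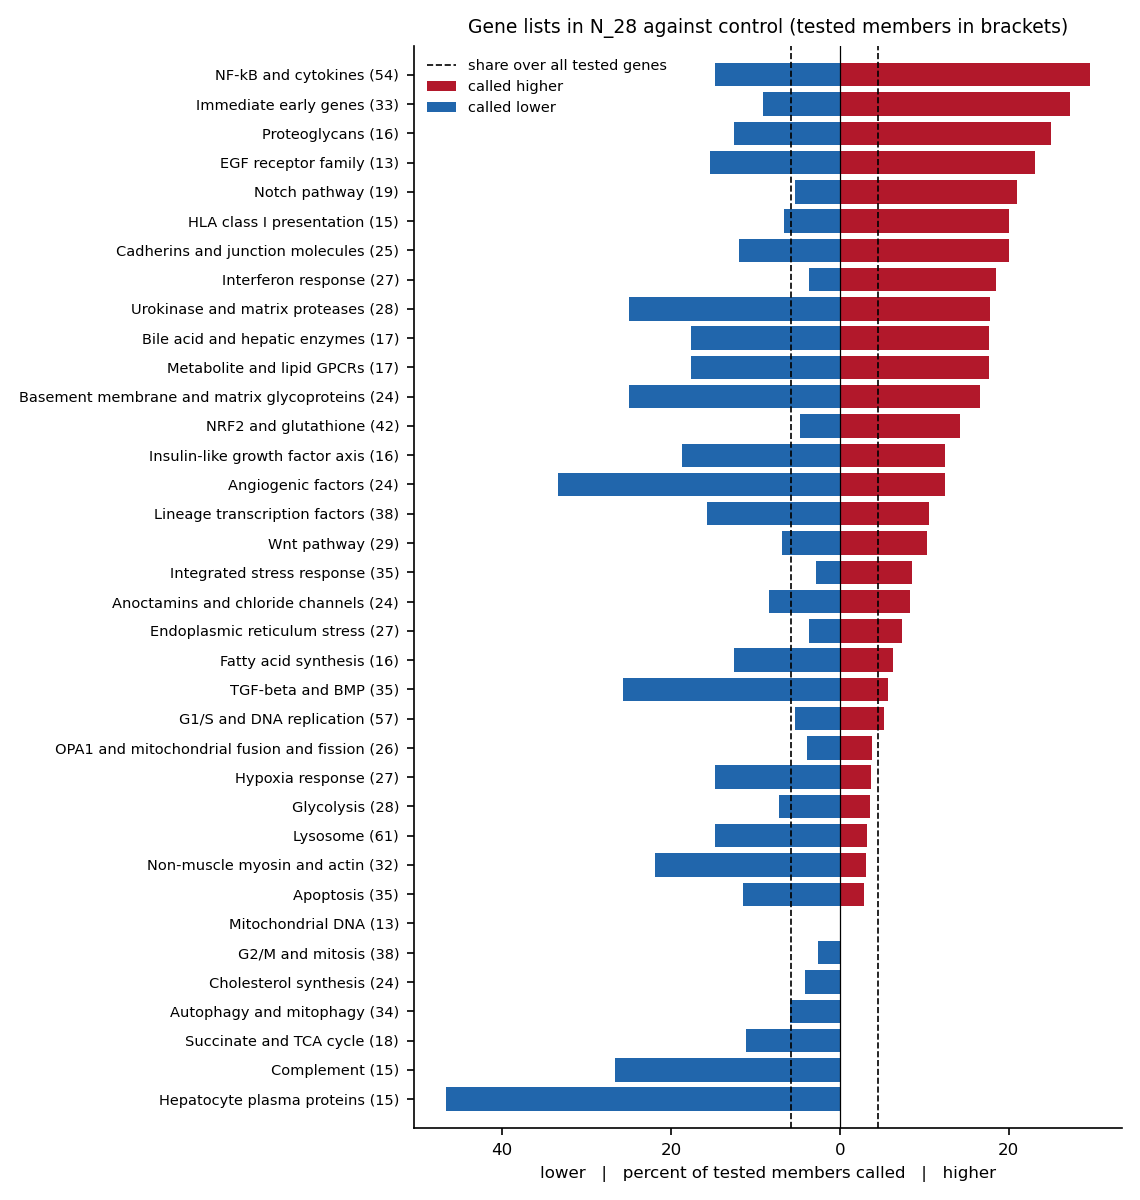
Share of the tested members of each gene list called higher (red, to the right) or lower (blue, to the left) in N_28 against control, in percent, with the number tested in brackets. Dashed lines mark the shares over all 15019 genes, 4.49% higher and 5.75% lower. The NF-kB and cytokine list stands at 16 rises of 54 and the hepatocyte plasma protein list at 7 falls of 15 with all libraries, and these counts are 8 and 4 in the lowest fit with a library left out. Scarce members of the plasma protein list could pass the filter through the control libraries alone, so the direction of its count supports nothing.

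Among 1593 tested long non-coding RNA genes 22 rose and 34 fell, both below the shares over all genes of 4.49% and 5.75%. LINC02535 had 39.3, 40.3 and 35.5 CPM in N_28 libraries, against 18.9, 19.9 and 19.2 CPM in control libraries (0.99, SE 0.10, adjusted p = 2.14e-05), and LINC02582 rose by 1.24, NEXN-AS1 by 0.86, LINC01508 by 0.73 and HHIP-AS1 by 0.64. LINC02649 fell by 0.997, LINC01963 by 0.92 and WAC-AS1 by 0.51. LINC00857 fell by 0.49, and lost the call without control replicate 1 (0.0583), control replicate 3 (0.0622), N_28 replicate 1 (0.0895) or N_28 replicate 2 (0.0666). Antisense genes overlap a partner on the other strand, and their reads are uncertain without strand.

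Changes were also counted by chromosome, and chromosomes 13 and 22 had the medians farthest from 0. On chromosome 13, of 235 tested genes 34 rose and 8 fell, with a median of 0.17, and of its 166 genes averaging 5 CPM or more 87.3% had a change above 0. On chromosome 22, of 386 tested genes 6 rose and 42 fell, with a median of -0.11, and 22.4% of the 250 genes at that level had a change above 0. Each N_28 library showed the shift: set against the control mean, the chromosome 13 medians were 0.18, 0.19 and 0.16 and the chromosome 22 medians -0.10, -0.10 and -0.11 for replicates 1, 2 and 3. Chromosome 14 (0.07) and the X chromosome (0.06) came next above 0 at this level. Called genes named above that lie on chromosome 22 are PDGFB, MRTFA and FBLN1, of which FBLN1 rose and the others fell. What part the chromosome shift has in their values was not tested.

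**Figure D5:**
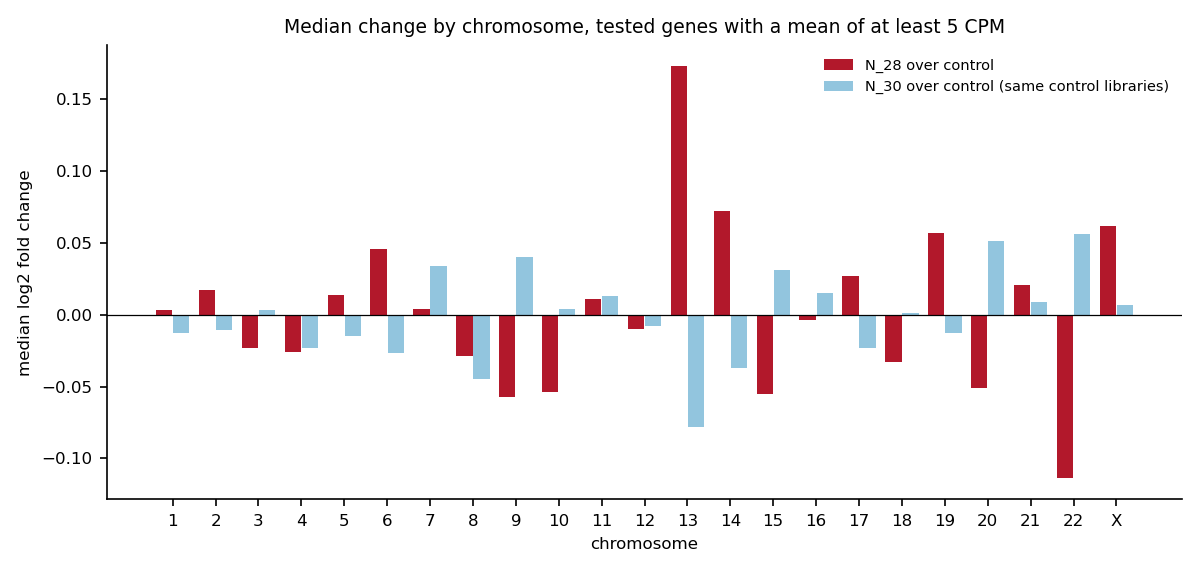
Median log2 fold change of tested genes averaging 5 CPM or more on each autosome and the X chromosome, for N_28 over control (red) and N_30 over control (light blue), which share the same control libraries. Chromosome 13 is highest (0.17) and chromosome 22 lowest (-0.11) in N_28.

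Set directly against N_30, the other OPA1 knock-down, 2755 genes (18.3%) were called. Of the 15 largest rises of N_28 over control 14 were also higher in N_28 than in N_30, the exception being ANXA8L1 (adjusted p = 0.122), and the 15 largest falls were all lower in N_28 than in N_30. These genes were picked by their change in the same N_28 libraries, which favours such an outcome, so the 2 counts support nothing. For ANO1 the difference of N_28 minus N_30 was 2.35 (SE 0.13, adjusted p = 1.26e-07), for NQO1 1.77 (SE 0.15, adjusted p = 2.74e-06) and for SUCNR1 -3.70 (SE 0.43, adjusted p = 5.15e-05). OPA1 had 53.3 to 57.8 CPM in N_28 libraries and 63.3 to 65.9 CPM in N_30 libraries, a difference of -0.21 (adjusted p = 0.0265). By this test the level of OPA1 differed between the knock-down sets by more than the spread between libraries. ANO1, NQO1 and SUCNR1 passed it too, but they are among the most changed genes of the same N_28 libraries. This favours such a difference, so their p-values are no separate support.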

How the data were processed

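The series holds RNA-seq of 9 libraries, 3 in each of N_28, N_30 and control, and groups were taken from the sample titles. The values are raw counts per gene as deposited by the authors in 1 table of 60448 Ensembl gene rows, of which 30527 had no read in any library. The sources used here give no aligner, counter or strand setting. As genome build, mm8, a mouse build, stands in the submitters' processing notes, although the rows are human genes, so coordinates here are those of GENCODE release 29 on GRCh38 and not of the counting. Symbols of 41164 rows came from a table of gene names and those of 15704 from GENCODE, and 3580 rows had none.

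Counts were fitted in R 4.3.3 with edgeR 4.0.16 (TMM, a filter by expression with a minimum count of 10, quasi-likelihood test, 15019 genes) over all 9 libraries without a replicate term, with calls made at p under 0.05 after Benjamini-Hochberg adjustment. The biological coefficient of variation was 0.0783. Standard errors are the log2 fold change over the square root of F. The method was tested on simulated data. Alternatives were DESeq2 1.42.0, RLE size factors, no filter, a mean of 5 CPM, adjusted p under 0.01, the 6 libraries alone, a replicate block, and each library left out. Leaving out libraries for gene lists, families and chromosomes was added after seeing the data.

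Named genes are OPA1, ANO1, NQO1 and SUCNR1, the 15 largest rises and 15 largest falls among called protein-coding genes at a mean of 5 CPM without overlap, the 8 most abundant each way of at least 0.5 in size, genes with a mean under 1 part in 5 of the other group's, 5 non-coding genes each way, and members of lists. Uncalled members and list members beyond that rule were picked after their values were seen. Members and lists were chosen with earlier results of these data known. Some genes that these rules name are not reported here. Intervals and floors cover counting error only.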

Additional observations from a re-analysis of the deposited data

Results flagged for a closer look

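The genes named by rule were searched for opposite changes, apart from those named only as list members. Of them 9 showed a change over control that went one way in N_28 and the other way in N_30, each called. The difference between the knock-down sets passed the test of edgeR itself in each, and over all 15019 tested genes 55 met these conditions. Both changes use the same 3 control libraries. Other named genes were called in the same direction over control in both sets. Among them were BGN (1.48 in N_28 and 0.89 in N_30) and IGFN1 (0.96 and 1.07). ADGRL4 (-2.05 and -0.86) and IL13RA2 (-1.82 and -1.13) were lower in both, as was OPA1 (-0.68 and -0.46). FAM50B had 11.5 ± 0.351 CPM in N_28 libraries, 3.28 ± 0.282 in N_30 libraries and 5.33 ± 0.27 in control libraries (SD, n = 3 each), with a difference of N_28 minus N_30 of 1.81 (adjusted p = 3.67e-07). SFRP1, the Wnt antagonist, had 622 ± 74.1 CPM in N_28 libraries, 164 ± 20.2 in N_30 libraries and 370 ± 22 in control libraries, a difference of 1.92 (adjusted p = 7.91e-08). LINC02535 averaged 38.4 CPM in N_28 libraries, 11.1 in N_30 libraries and 19.3 in control libraries (1.78, adjusted p = 1.27e-07), and the kinase gene MAPK7 averaged 473, 228 and 310 CPM in the same order of groups (1.05, adjusted p = 6.55e-06).

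The other 5 were lower in N_28 and higher in N_30 than in control. TMEM158 had 4.05 ± 0.191 CPM in N_28 libraries, 22.8 ± 4 in N_30 libraries and 14.8 ± 1.58 in control libraries, a difference of -2.50 (adjusted p = 1.39e-07). The laminin chain LAMA3 averaged 11.5 CPM in N_28 libraries, 56.3 in N_30 libraries and 36.5 in control libraries (-2.29, adjusted p = 7.25e-08). PADI3 averaged 213 CPM in N_28 libraries, 605 in N_30 libraries and 452 in control libraries (-1.51, adjusted p = 6.05e-08). TGFBI averaged 176 CPM in N_28 libraries, 507 in N_30 libraries and 358 in control libraries (-1.52, adjusted p = 5.37e-07), and GBGT1 averaged 3.61, 14.3 and 10 CPM in that order (-1.99, adjusted p = 2.67e-07).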

How the results depend on the processing

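The 1538 calls were 1608 by DESeq2, 1550 with RLE size factors, 1423 at a mean of 5 CPM, 1966 without a filter and 1542 from the 6 libraries alone. At an adjusted p under 0.01 they were 794, of which 323 were higher and 471 lower. With 1 library left out there were 967 to 1309 calls, 399 to 534 higher and 568 to 775 lower, each lowest without N_28 replicate 1. OPA1 was called under each alternative, and its change ran from -0.72 to -0.64 with a library left out. Of 76 other named genes 74 kept their call in each of the 12 alternatives that gave a value, and LINC00857 and ST18 each lost it in 4. Genes named only as members of lists or families are outside this count. Several of them lost a call in a fit without a library, as given above. HMOX1, which was not called, ran from -0.491 to 0.316 with a library left out and MFN2 from -0.036 to 0.011, and the cause was not tested. The chromosome 13 median ran from 0.146 to 0.178 and that of chromosome 22 from -0.133 to -0.094.

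The replicate numbers are not stated to pair libraries, and the correlations of same-numbered deviations in N_28 and control were -0.0588, 0.0358 and 0.142. Under a block for the replicate number the calls were 2301, 1068 higher and 1233 lower, and OPA1 stood at -0.67. Not every library correlated best with its own number: N_28 replicate 1 did so with control replicate 2 (0.163). Depth limits genes near 3 reads a library, 0.131 to 0.165 CPM in N_28 libraries and 0.135 to 0.153 CPM in control libraries.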

Other observations

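Further families were counted in N_28 against control, and each gene named here kept its call whichever library was left out. Among 13 tested aldehyde dehydrogenases, which clear reactive aldehydes, 3 rose and 2 fell, the rises being 1 in each fit without a library other than control replicate 1. ALDH1A3, an enzyme of retinoic acid synthesis, had 10.7, 10.6 and 11 CPM in N_28 libraries, against 30.7, 31.2 and 25.3 CPM in control libraries (-1.43, SE 0.12, adjusted p = 1.01e-05), and ALDH3A2, which oxidises fatty aldehydes, rose by 0.58. CYP26B1, which breaks down retinoic acid, fell by 1.11, and CYP24A1, which inactivates vitamin D, rose by 0.46. Of 12 TNF receptor family genes 4 rose and 2 fell, with 2 rises without control replicate 2, N_28 replicate 1 or N_28 replicate 3 and 1 fall without control replicate 1 or any N_28 library. TNFRSF25 had 32.5, 25.9 and 26.5 CPM in N_28 libraries, against 13.5, 14.9 and 15.7 CPM in control libraries (0.94, SE 0.11, adjusted p = 0.000111), while TNFRSF11A, the receptor RANK, fell by 0.94. The calcium-binding S100A16 had 317, 309 and 322 CPM in N_28 libraries, against 226, 215 and 221 CPM in control libraries (0.52, SE 0.05, adjusted p = 2.81e-05), and S100A4 fell by 0.53.

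Of 208 tested solute carriers 10 rose and 18 fell, near the shares over all genes of 4.49% and 5.75%, and 12 of these 28 held in each fit with a library left out. SLC35A4 had 87.5, 89.4 and 94.2 CPM in N_28 libraries, against 141, 142 and 144 CPM in control libraries (-0.65, SE 0.06, adjusted p = 8.73e-06). SLC6A9, a glycine carrier, fell by 0.57, SLC12A2, which brings chloride into the cell with sodium and potassium, by 0.59 and the citrate carrier SLC25A1 by 0.30, the last on chromosome 22. The rises were 4 without N_28 replicate 1 or N_28 replicate 2 and 5 without control replicate 3, and the falls 11 without control replicate 1 or N_28 replicate 1. KCNMA1, a calcium-activated potassium channel, had 570, 556 and 526 CPM in N_28 libraries, against 782, 772 and 702 CPM in control libraries (-0.45, SE 0.07, adjusted p = 0.000768). All 3 called adhesion receptors of 10 tested were of the latrophilin subfamily and fell, ADGRL4 by 2.05, ADGRL2 by 0.54 and ADGRL1 by 0.44. The transcription factors KLF7 (-0.82) and SOX2 (-0.80) fell, and SOX18 (0.90) and KLF5 (0.31) rose, the last on chromosome 13, where the median of tested genes was 0.17 and its part in the result was not tested. Of 37 tested proteasome subunits 3 rose and 0 fell, and the rises were 1 without control replicate 3, N_28 replicate 1 or N_28 replicate 3, with PSMC5 (0.24) kept in each fit.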
